A study of Mus musculus with 19 samples.

Results

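The postsynaptic density is the protein-rich plate under the membrane of an excitatory synapse. The genes described here are 41 named mouse genes that encode its scaffolds, adhesion proteins, kinases, phosphatases, small GTPase regulators and actin-binding proteins. They were chosen by name for these roles, with earlier results of these data known. They were found by Ensembl identifier among the 48709 genes of the deposited count tables. All 41 passed the filter on low counts, which kept 19297 genes.

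RNA of the microdissected CA1 region of the hippocampus was sequenced in 19 libraries. The mice were 7 months old, and their groups were 6 libraries named WT control, 6 named APP control and 7 named APP anti-miR-mix. The APP mice were APPPS1-21 transgenics, in which neurons express mutant human APP and presenilin 1 from the Thy1 promoter, and the WT mice were their littermates without the transgenes. Every mouse received lipid nanoparticles into the dorsal hippocampus: the anti-miR-mix held inhibitors of miR-148a-3p, miR-181a-5p and miR-146a-5p, and the controls held a control oligonucleotide. The WT titles also contain the term anti-miR-mix, but the study describes those animals as injected with the control oligonucleotide, and the name WT control is used here as the labels give it. All 3 groups therefore share the injection and the nanoparticle, and there was no uninjected group and no WT group with the inhibitors. The labels number the libraries without naming animals, so p-values measure the spread between these libraries. The sex of the mouse behind each library is not given here. In the study's memory test these groups held both sexes in unequal proportions.

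Scaffolds of this plate are stacked. MAGUK proteins of the Dlg family bind glutamate receptors and adhesion proteins at the membrane, SAPAP proteins of the Dlgap family link the MAGUKs to Shank, and Shank and Homer form the deeper layer that reaches the actin cytoskeleton. CaMKII, the calcium- and calmodulin-dependent kinase that is abundant in hippocampal pyramidal cells, acts with calcineurin, the calcium-dependent phosphatase, to raise or lower synaptic strength, and both are held in place by anchoring proteins.

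The injected oligonucleotides are shown because they define the third group. The mature microRNAs are given first, as RNA from RefSeq (build GRCm38.p6), with bases 2 to 8, the seed that pairs with target transcripts, in capitals. miR-181a-5p comes from 2 genes, Mir181a-1 at chr1:137966468-137966490 and Mir181a-2 at chr2:38852741-38852763, both on the plus strand. miR-146a-5p comes from Mir146 at chr11:43374435-43374456 on the minus strand, and miR-148a-3p from Mir148a at chr6:51269829-51269850 on the minus strand.
miR-181a-5p: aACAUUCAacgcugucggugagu
miR-146a-5p: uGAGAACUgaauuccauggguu
miR-148a-3p: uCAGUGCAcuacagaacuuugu
The inhibitors follow, 5′ to 3′ as DNA letters, with the bases that pair with the seed in capitals. The inhibitor of miR-146a-5p covers all 7 seed bases and the other inhibitors cover 6 each.
inhibitor of miR-181a-5p: actcaccgacagcgtTGAATG
inhibitor of miR-146a-5p: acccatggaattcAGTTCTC
inhibitor of miR-148a-3p: caaagttctgtagTGCACT
control oligonucleotide for the inhibitors: taacacgtctatacgccca

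Matches to the seeds were searched on the transcript strand in the longest annotated 3′ UTR of each gene. An 8mer is the reverse complement of the seed followed by A, that is TGAATGTA for miR-181a-5p, AGTTCTCA for miR-146a-5p and TGCACTGA for miR-148a-3p. The TGAATGTA match was present in 5 of 41 members (12.2%) and in 5.89% of the 15397 kept genes with an annotated 3′ UTR. The AGTTCTCA match was present in 2 members (4.88%) and in 4.50% of those genes, and the TGCACTGA match in 1 member (2.44%) and in 4.09%. The members' 3′ UTRs were longer, with a median of 2185 nt against 1161 nt, so a longer stretch was searched in them. The 8 matches are printed with the 16 bases before each, the match in capitals, with GRCm38 coordinates; a match is a string of letters and not a measured binding site.
Dlg2, chr7:92444727-92444750, plus strand, miR-181a-5p: tcaatgtgaatccttaTGAATGTA
Cnksr2, chrX:157822200-157822223, minus strand, miR-181a-5p: tgcctgtacagctcagTGAATGTA
Camk2d, chr3:126844397-126844420, plus strand, miR-181a-5p: gatatattgttgctagTGAATGTA
Kalrn, chr16:33972198-33972221, minus strand, miR-181a-5p: tttaaatgagaatatcTGAATGTA
Baiap2, chr11:120002452-120002475, plus strand, miR-181a-5p: ttccatgtgcaatggaTGAATGTA
Homer2, chr7:81608357-81608380, minus strand, miR-146a-5p: ccccacagctcccaatAGTTCTCA
Nlgn1, chr3:25432544-25432567, minus strand, miR-146a-5p: gtaccattctgattacAGTTCTCA
Ppp1r9b, chr11:95005933-95005956, plus strand, miR-148a-3p: aggctgggcctgggccTGCACTGA

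The libraries held 19362343 to 37018917 counts, of which the 41 members took 1.66% to 2.22%. Markers of CA1 pyramidal cells were well above those of neighbouring fields on the TPM scale, that is counts divided by exonic length and scaled to the same total in each library. The median of the 6 CA1 markers lay between 72.0 and 160.3 TPM per library, that of the 4 CA2 markers between 25.5 and 44.8, that of the 4 CA3 markers between 4.86 and 16.6 and that of the 5 dentate granule cell markers between 5.25 and 29.7. That of the 6 interneuron markers lay between 125.9 and 167.1. Levels of different marker genes do not measure the share of each field or cell type in the tissue. WT control 5 and APP anti-miR-mix 6 stood apart in choroid plexus markers, whose summed normalized counts were 2383 and 1675 there and between 403 and 920 in the other 17 libraries. WT control 4 had the highest value of its group for 28 of the 41 members, with a median deviation of 0.22 on the log2 scale, and APP control 1 had the highest for 21, with a median deviation of 0.14.

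The members were among the most abundant genes of wild-type CA1. Their median level in WT control was 136.5 TPM against 12.9 TPM over all kept genes, 28 of the 41 lay above the 90th percentile and 39 above the median gene. Levels spanned a 233-fold range, and the 5 most abundant members made up 59.8% of the summed level.

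Nrgn, whose product neurogranin binds calmodulin near the membrane, was highest at 2423 ± 175 TPM (SD, n = 6), followed by Camk2a, the alpha subunit of CaMKII, at 1947 ± 284 TPM and Ddn, the dendritically localized dendrin, at 1816 ± 341 TPM. The ranges of neighbours in this order overlapped, except at 6 steps. One of them separated Ddn from Ppp1r9b, which encodes the actin-binding phosphatase anchor spinophilin and reached 846.0 ± 61.6 TPM, and another separated Agap2, a GTPase-activating protein, at 827.5 ± 87.8 TPM from Ppp3ca, the main calcineurin catalytic subunit, at 579.6 ± 122 TPM. These first 5 genes are calmodulin, actin or GTPase partners and a kinase, and none is a Dlg, Dlgap, Shank or Homer scaffold.

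Among the scaffolds, Shank1 was the most abundant at 296.3 ± 22.1 TPM. Dlgap3, at 219.3 ± 16.3 TPM, and Dlg4, at 218.4 ± 14.0 TPM, could not be ordered, since their ranges overlapped, and Dlg3 followed at 160.3 ± 15.1 TPM. Dlgap1 reached 152.9 ± 10.6 TPM, Shank3 105.3 ± 7.75 TPM and Dlg2 100.4 ± 5.03 TPM, whereas Dlg1 and Dlgap2 lay at 56.7 ± 7.06 and 42.8 ± 5.00 TPM. The lowest members were adhesion proteins and minor family members: Nlgn1, a neuroligin that binds presynaptic neurexin, at 21.4 ± 3.53 TPM, Homer3 at 15.1 ± 2.68 TPM, Camk2d at 12.9 ± 4.58 TPM and Lrrtm4 at 10.4 ± 1.87 TPM. Of the exonic length of Lrrtm4, 25.1% overlaps Gm4409 on the opposite strand, and of that of Nlgn3, another low neuroligin, 41.24% overlaps Gm21986 on the same strand, so their levels are uncertain.

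**Figure D1:**
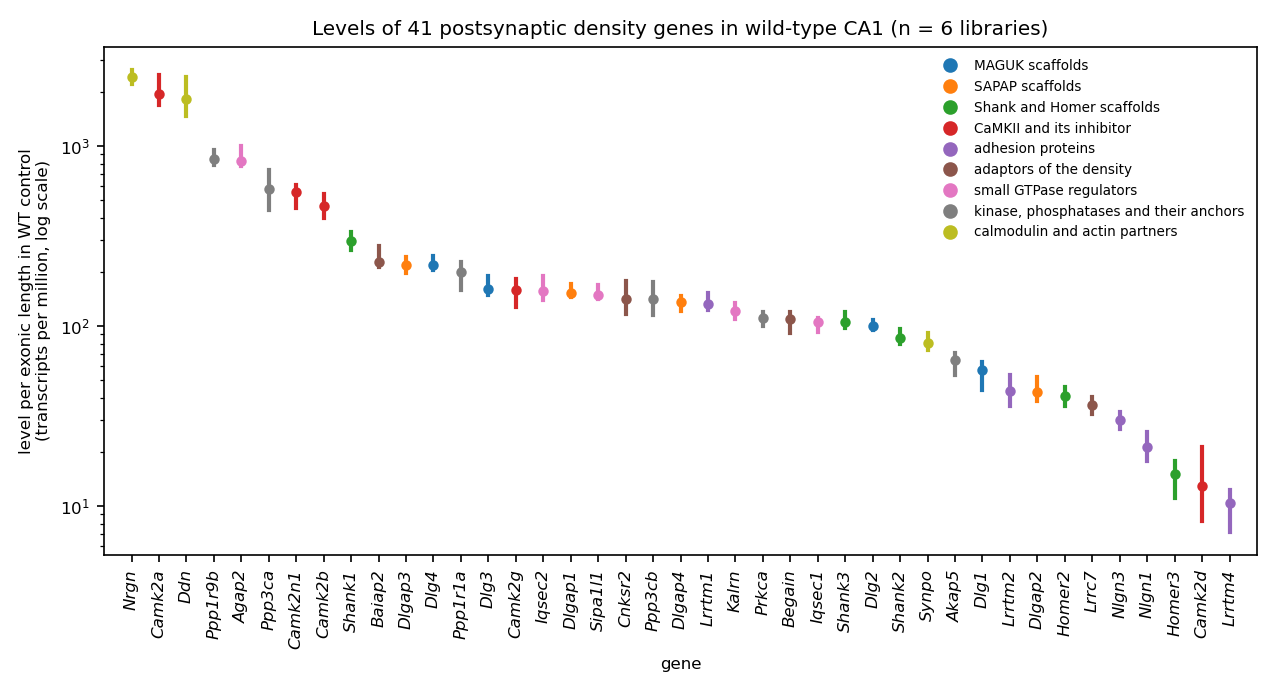
Mean (point) and range (bar) of the level per exonic length of each of the 41 genes over the 6 WT control libraries, in TPM on a log scale, coloured by role. Nrgn, Camk2a and Ddn stand above the remaining genes, and the adhesion proteins Nlgn1, Nlgn3 and Lrrtm4 lie near the lower end.

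The comparison of APP control with WT control addresses the effect of the transgenes under the control injection. Lrrc7 was the single member called, that is with an adjusted p under 0.05 in a DESeq2 fit over all 19297 genes. It was lower, while 1.05% of all genes were called lower and 4.71% in either direction. Of all 41 members, 36 had a negative log2 fold change with a median of -0.069, against 54.4% negative and a median of -0.012 over all genes, but with libraries scaled on 16 neuron markers 20 of 41 were negative and the median was 0.0048. That scaling moved the median of all genes as well, from -0.012 to 0.064, so the members' median stayed below it. Without WT control 4 the members' median with the main scaling was -0.026, with 30 of 41 negative. Without APP control 1 it was -0.105, with 35 of 41 negative. The neuron markers themselves had a median of -0.079, with all 16 negative and none called. In bulk tissue, fewer neurons and less RNA per neuron cannot be told apart.

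Lrrc7 encodes densin, a scaffold that binds CaMKII and Shank. The gene (ENSMUSG00000028176) lies on the minus strand at chr3:158082891-158562221 in GRCm38, and 0.68% of its exonic length overlaps Gm42968 on the opposite strand. Its normalized counts had a lowest, median and highest value of 2237, 2438 and 2854 in WT control and of 1909, 2089 and 2309 in APP control. All 6 APP control libraries lay below the WT control median, and the groups overlapped only between the highest APP and the lowest WT libraries. The log2 fold change was -0.27 (SE 0.07, DESeq2 adjusted p 0.0041) and the fold 0.83. The call was made in all 12 alternative fits and all 19 fits that left out 1 library, with the largest DESeq2, edgeR or limma adjusted p at 0.027, and the log2 fold change was -0.19 with neuron-marker scaling.

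At an unadjusted p under 0.05 there were 7 of 41 members including Lrrc7, all lower, where 5.53% of all genes were lower at this level. Sipa1l1, a GTPase-activating protein for Rap that shapes spines, had 12440, 13026 and 15618 normalized counts in WT control and 10951, 11469 and 13643 in APP control as lowest, median and highest. APP control 1 lay above the WT median, and the other APP control libraries lay below every WT control library. Its log2 fold change was -0.19 (SE 0.07, DESeq2 adjusted p 0.072), and it was called when APP control 1 was left out (adjusted p 0.0040), WT control 1 was left out (0.040) or the adjustment number of the deposited normalized table was a linear term (0.036).

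Dlgap1, the SAPAP scaffold between Dlg and Shank, had a log2 fold change of -0.16 (SE 0.06, DESeq2 adjusted p 0.16), and Cnksr2, a scaffold of Ras signalling in the density, one of -0.25 (SE 0.11, 0.25). Shank1 had a log2 fold change of -0.16 (SE 0.07, DESeq2 adjusted p 0.20) and Dlg2, a MAGUK that clusters NMDA receptors, one of -0.13 (SE 0.06, 0.26). Iqsec1, an exchange factor for Arf GTPases in receptor traffic, had a log2 fold change of -0.12 (SE 0.05, DESeq2 adjusted p 0.24). The 5 genes that came next by unadjusted p were Dlg3 with a log2 fold change of -0.12, Lrrtm2 with -0.28, Homer3 with 0.24, Homer2 with -0.21 and Akap5, which anchors kinases and calcineurin, with -0.16. Of these, Homer2 was called when APP control 6 was left out (log2 fold change -0.30, DESeq2 adjusted p 0.035). Homer3 was the only one of the 12 genes with the smallest p with a positive value, and 25.4% of its exonic length overlaps Ddx49 on the opposite strand, which cannot be told apart from it if the counting ignored strand.

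By role, the adaptors Lrrc7, Baiap2, Begain and Cnksr2 had the lowest median log2 fold change in this comparison, -0.16, with 1 of 4 called lower, where 1.05% of all genes were, although with neuron-marker scaling that median was -0.086. The medians of the 4 Dlg genes and of the 6 kinase, phosphatase and anchor genes were -0.11 and -0.10, with none called. The CaMKII genes with the inhibitor Camk2n1 had a median of -0.013, and with neuron-marker scaling of 0.062, again with none called. Camk2a differed by -0.013 (95% interval -0.20 to 0.17) and Camk2b by -0.022 (-0.19 to 0.14) on the log2 scale. Dlg4 differed by -0.090 (-0.24 to 0.058), Nrgn by -0.034 (-0.25 to 0.18) and Ppp3ca by -0.091 (-0.38 to 0.20). Shank3 differed by -0.069 (-0.21 to 0.076), Nlgn1 by -0.11 (-0.34 to 0.12), Kalrn by -0.080 (-0.22 to 0.061) and Synpo, which encodes the actin-binding synaptopodin of the spine neck, by -0.061 (-0.20 to 0.080). These intervals all include 0, and with neuron-marker scaling the values of Camk2a, Camk2b, Nrgn, Shank3 and Synpo turned positive, at 0.0048 to 0.062.

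**Figure D2:**
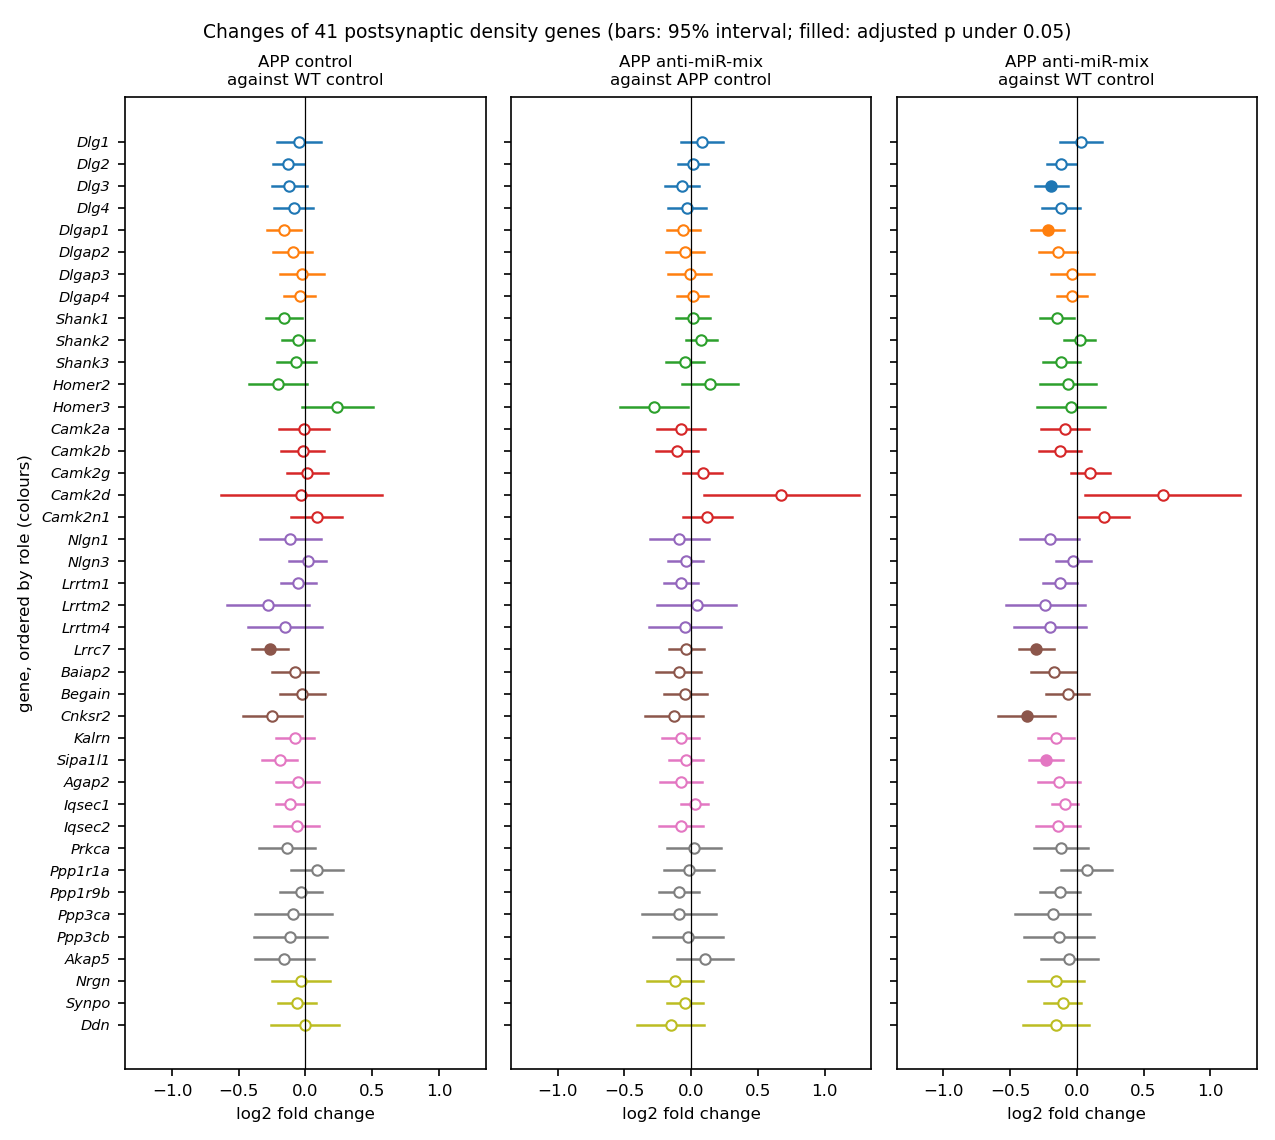
Log2 fold change (point) with its 95% interval (bar) for each gene in the 3 comparisons, coloured by role, with called genes filled. One gene is filled in the comparison of APP control with WT control, 5 in that of APP anti-miR-mix with WT control and none in that of APP anti-miR-mix with APP control, where Camk2d has the widest interval.

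APP anti-miR-mix was compared with WT control over 7 and 6 libraries. This contrast changes both the transgenes and the oligonucleotides, and it shares its WT libraries with the first comparison. Lrrc7, Sipa1l1, Dlgap1, Cnksr2 and Dlg3, 5 of the 41, were called lower, where 3.36% of all genes were, and none was called higher. At an unadjusted p under 0.05 there were 11 lower and 2 higher members, where 9.18% and 10.2% of all genes were. With the number of the label as a block 8 members were called, again all lower, where 5.05% of all genes were: the same 5 with Dlg2, Lrrtm2 and Nlgn1. Whether that number pairs the libraries of these groups was not tested. With neuron-marker scaling Lrrc7 alone was called, where 1.05% of all genes were lower, and edgeR called the 5 without Dlg3, where 1.49% were. Over all members 35 of 41 log2 fold changes were negative, against 54.4% of all genes, with a median of -0.12 against -0.015 over all genes and of -0.064 with neuron-marker scaling, where the median of all genes was 0.044. Without WT control 4 the members' median with the main scaling was -0.071, with 33 of 41 negative. Without APP anti-miR-mix 3 it was -0.15, with 35 of 41 negative.

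Lrrc7 normalized counts had a lowest, median and highest value of 1823, 2026 and 2159 in APP anti-miR-mix. Every one of these libraries lay below the lowest WT control library, at 2237. Its log2 fold change was -0.30 (SE 0.07, DESeq2 adjusted p 0.00022). Dlgap1, at chr17:69969073-70821413 on the plus strand (ENSMUSG00000003279), had 17911, 18667 and 22125 counts in WT control and 15803, 16221 and 17544 in APP anti-miR-mix. These groups did not overlap either, and its log2 fold change was -0.22 (SE 0.06, DESeq2 adjusted p 0.0087). They were the 2 members without overlap between the groups, where 0.897% of all genes were lower without overlap.

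Sipa1l1, at chr12:82169320-82451786 on the plus strand (ENSMUSG00000042700), had 10412, 11488 and 12882 normalized counts in APP anti-miR-mix as lowest, median and highest. All 7 libraries lay below the WT control median of 13026, and APP anti-miR-mix 3 overlapped the WT range. Its log2 fold change was -0.23 (SE 0.06, DESeq2 adjusted p 0.0083). Cnksr2, at chrX:157821436-158043294 on the minus strand (ENSMUSG00000025658), had 7400, 9076 and 11893 counts in WT control and 6221, 6989 and 8021 in APP anti-miR-mix. WT control 1, 2 and 3 held 7400 to 7885 counts and WT control 4, 5 and 6 held 10267 to 11893, and the treated libraries overlapped the first of these. Its log2 fold change of -0.38 (SE 0.11, DESeq2 adjusted p 0.010) was the most negative of the members here, and it was not called without WT control 4 (adjusted p 0.064) or WT control 6 (0.052).

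Dlg3, the X-linked MAGUK at chrX:100767722-100818410 on the plus strand (ENSMUSG00000000881), had 6112, 6310 and 7972 normalized counts in WT control and 5234, 5889 and 6137 in APP anti-miR-mix. All 7 treated libraries lay below the WT median, and WT control 4 was the highest, with 6821 in the next WT library. The log2 fold change was -0.19 (SE 0.06, DESeq2 adjusted p 0.036), the edgeR adjusted p was 0.093, and without WT control 4 the log2 fold change was -0.13 (DESeq2 adjusted p 0.13). Dlg3 was also not called when WT control 6 or APP anti-miR-mix 1, 5, 6 or 7 was left out. Without the libraries high in choroid plexus markers, WT control 5 and APP anti-miR-mix 6, Lrrc7 and Sipa1l1 were called and Dlgap1, Cnksr2 and Dlg3 were not.

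Among the genes with an adjusted p above the threshold in the fit without the block, Dlg2 differed by -0.12 (SE 0.06, DESeq2 adjusted p 0.21, and 0.028 with the block), Lrrtm2 by -0.24 (SE 0.15, 0.41, and 0.0081 with the block) and Nlgn1 by -0.20 (SE 0.11, 0.31, and 0.011 with the block). Kalrn, an exchange factor for Rac in spines, differed by -0.16 (SE 0.07, DESeq2 adjusted p 0.14), and it was called without APP anti-miR-mix 3 (-0.21, adjusted p 0.013). The members that had a positive difference at an unadjusted p under 0.05 were Camk2n1, which encodes an inhibitor of CaMKII, at 0.20 (SE 0.09, DESeq2 adjusted p 0.18) and Camk2d, the delta subunit, at 0.65 (SE 0.30, 0.17).

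By role, the adaptors again had the lowest median log2 fold change against WT control, -0.24 with 2 of 4 called lower, where 3.36% of all genes were, followed by the adhesion proteins at -0.20 with none of 5 called. With neuron-marker scaling these medians were -0.18 and -0.13. The CaMKII genes with Camk2n1 had a positive median of 0.10, and of 0.16 with neuron-marker scaling, again with none called.

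**Figure D3:**
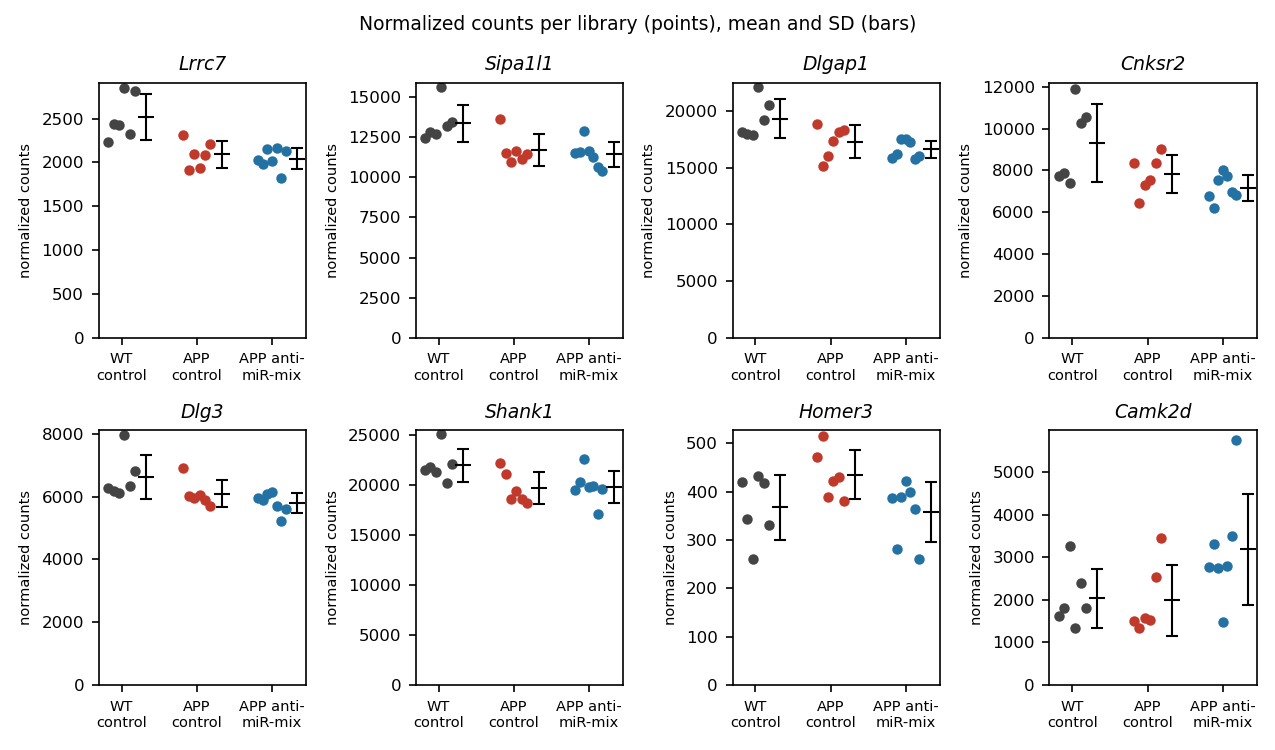
Normalized counts of 8 genes in each library (points), with the mean and SD of each group beside them (bars), on axes from 0. For Lrrc7 and Dlgap1 no APP anti-miR-mix library reaches the lowest WT control library, whereas Camk2d runs from 1472 to 5757 within the APP anti-miR-mix group.

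Several marker lists differed between these groups. The summed normalized counts of 9 microglia markers ranged between 14346 and 23207 for WT control, 23268 and 47499 for APP control and 29239 and 46384 for APP anti-miR-mix. In the fit, 7 of the 9 were called higher in APP control and 8 in the treated group, both against WT control. Of all 19297 genes, 706 and 1078 were called higher and 202 and 649 lower in these comparisons, which applies to each count in this paragraph. All 10 genes of an amyloid response list were called higher in each, with medians of 1.82 and 1.91 on the log2 scale and sums of 27513 to 51528 for WT control, 52726 to 141369 for APP control and 68583 to 123968 for APP anti-miR-mix. The summed counts of 16 neuron markers ranged between 277267 and 334124 for WT control, 271092 and 297863 for APP control and 270466 and 307723 for APP anti-miR-mix, and none was called. The sum of 5 immediate early genes, which report recent neuronal activity, ranged between 10547 and 17396 for WT control, 7217 and 9534 for APP control and 5554 and 10759 for APP anti-miR-mix, with 4 and 5 of the 5 called lower against WT control. The 6 markers of CA1 pyramidal cells had a median log2 fold change of -0.12 for APP control, with 6 of 6 negative, and of -0.19 for the treated group, with 4 of 6 negative, both against WT control. The 4 markers of CA3 had medians of 0.38 and 0.092, and of -0.28 between the APP groups, and none of the CA1 or CA3 markers was called. Of the 4 CA2 markers, none was called in APP control, and in the treated group Pcp4 was called higher (log2 fold change 0.52, DESeq2 adjusted p 0.027) and Amigo2 lower (-0.40, 0.046), against WT control. Endothelial markers were called higher for 1 of 4 in APP control and 2 of 4 in the treated group, with medians of 0.20 and 0.26. Fibroblast and meningeal markers were called higher for 0 of 4 and 2 of 4, with medians of 0.51 and 0.64 and sums that overlapped between all 3 groups. No astrocyte, oligodendrocyte, dentate granule cell or choroid plexus marker was called. At an unadjusted p under 0.05, 2 of 6 astrocyte markers were higher in APP control and 3 of 6 in the treated group. Of all 19297 genes, 1576 and 1971 were higher at this level. The summed normalized counts of the CA3 markers ranged between 571 and 772 for WT control, 718 and 1136 for APP control and 636 and 965 for APP anti-miR-mix. The part of these cell types and genes in the lower levels of the members was not tested.

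The comparison of APP anti-miR-mix with APP control asks what the inhibitors did in transgenic mice. DESeq2 called none of the 41 members and none of the 19297 genes (0.0%), and edgeR called none either. At an unadjusted p under 0.05, 2 members (4.88%) and 552 genes (2.86%) were found. The members' median log2 fold change was -0.045, against -0.0015 over all genes, and 28 of 41 were negative, against 50.8% of all genes. That median was -0.012 with 23 of 41 negative without APP control 1, -0.020 without APP anti-miR-mix 6, and -0.019 with 25 negative without WT control 5 and APP anti-miR-mix 6, the libraries high in choroid plexus markers.

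Camk2d had the smallest p. Its normalized counts had a lowest, median and highest value of 1344, 1560 and 3459 in APP control and of 1472, 2789 and 5757 in APP anti-miR-mix. One treated library, number 4, lay below the APP control median of 1560 and the others above it, and the groups overlapped between 1472 and 3459. The log2 fold change was 0.68 (SE 0.30, unadjusted p 0.022, DESeq2 adjusted p 1.00). Camk2d was also the most variable member, with a standard deviation of 0.53 on the log2 scale within groups, against a median of 0.14 over the 41 members.

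Homer3, a low member that links Shank to metabotropic glutamate receptors, had 381, 426 and 514 normalized counts in APP control and 260, 386 and 422 in APP anti-miR-mix. All 7 treated libraries lay below the APP control median. Its log2 fold change was -0.28 (SE 0.13, unadjusted p 0.030, DESeq2 adjusted p 1.00). The next 3 by unadjusted p were Homer2 at 0.14 (95% interval -0.066 to 0.35), Shank2 at 0.077 (-0.038 to 0.19) and Camk2b at -0.10 (-0.26 to 0.055) on the log2 scale.

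The 5 genes called against WT control showed small differences between both transgenic groups. Between the treated and untreated APP libraries the log2 fold change was -0.035 for Lrrc7 (95% interval -0.17 to 0.096), -0.036 for Sipa1l1 (-0.16 to 0.092) and -0.058 for Dlgap1 (-0.18 to 0.063). It was -0.13 for Cnksr2 (-0.34 to 0.086) and -0.069 for Dlg3 (-0.20 to 0.057).

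A list of the study names 12 members as predicted targets of the inhibited microRNAs. The 7 assigned to miR-181a-5p, Dlg2, Dlgap1, Dlgap2, Camk2g, Cnksr2, Sipa1l1 and Iqsec2, had a median log2 fold change of -0.048 between the treated and untreated APP groups, with 2 above 0. The 4 assigned to miR-146a-5p, Dlg1, Dlgap2, Nlgn1 and Lrrtm2, had a median of -0.0030 with 2 above 0, and the 2 assigned to miR-148a-3p, Camk2a and Ppp1r9b, one of -0.083 with none above 0. The 12 together had a median of -0.053, the other 29 members of -0.041, and the 1682 listed genes among all kept genes of -0.00063. Of the 8 members with an 8mer match printed above, Camk2d, Homer2 and Dlg2 had positive log2 fold changes, at 0.68, 0.14 and 0.012 (-0.0050 for Dlg2 with neuron-marker scaling), and Cnksr2, Kalrn, Baiap2, Nlgn1 and Ppp1r9b had negative ones, from -0.13 to -0.079.

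Composition within families was compared as shares of the summed level per length, so that a change common to a whole family cancels. Shank1 made up 60.7% ± 0.50 (SD, n = 6) of the 3 Shank genes for WT control, 59.1% ± 1.12 (n = 6) for APP control and 59.1% ± 0.72 (n = 7) for APP anti-miR-mix. The lowest, median and highest shares were 59.8%, 60.9% and 61.1% for WT control, 57.0%, 59.4% and 60.2% for APP control and 58.3%, 59.4% and 60.3% for APP anti-miR-mix. WT control 5 was the single WT library inside the range of the transgenic groups. The difference from WT control was -1.61 percentage points for APP control (two-sided exact permutation test p 0.0043, adjusted over 12 comparisons 0.026) and -1.59 points for APP anti-miR-mix (exact permutation p 0.0035, adjusted 0.026). Shank2 made up 17.7%, 18.5% and 19.4% and Shank3 21.6%, 22.3% and 21.5% of the family in the same order of groups. Libraries were also paired with WT control by number, a pairing that was not established. Of 6 pairs each, the treated library had the lower share in 5 and the APP control library in 6 (exact permutation p 0.0625 and 0.031). The smallest p that 6 pairs allow is 0.031, so this paired test could not pass the threshold after adjustment unless 8 of the 12 comparisons reached that p. Both calls were lost when WT control 1, 2, 3, 4 or 6 was left out (adjusted exact permutation p 0.065 each), and that of APP control without WT control 1 and 5, which were high in amyloid response genes (0.086). The transgenic groups differed by 0.020 points (exact permutation p 0.97).

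In the other 3 families the differences between groups were smaller than the spread within the more variable group of each pair. Camk2a made up 75.2% ± 2.28, 75.3% ± 1.14 and 74.7% ± 1.34 of the 4 CaMKII genes in the WT, untreated APP and treated APP groups. Dlg4 made up 40.7% ± 0.82, 41.01% ± 2.63 and 40.8% ± 2.03 of the 4 Dlg genes in the same order, and Ppp3ca 80.4% ± 1.92, 80.7% ± 0.88 and 79.7% ± 2.64 of the 2 calcineurin catalytic genes. The adjusted exact permutation p was 0.99 in each of these 9 comparisons.

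**Figure D4:**
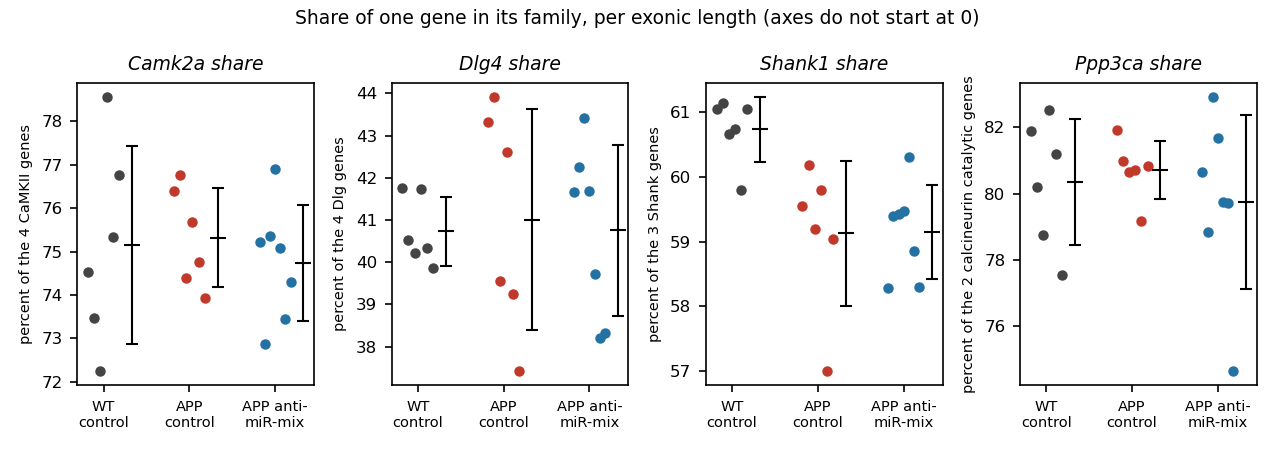
Share of Camk2a, Dlg4, Shank1 and Ppp3ca in the summed level per length of their families, in percent, for each library (points) with group mean and SD (bars), on axes that do not start at 0. In the Shank1 panel all WT control libraries but number 5, at 59.8%, lie above every transgenic library, and the groups overlap in the other 3 panels.

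Libraries of one group differed in a way that followed base composition. The deposited normalized table removes from each library a per-gene slope multiplied by a number from 1 to 5, whose meaning is not given in the sources used here. Within groups, 16 of the 41 members had a positive slope on this number and 25 a negative one. The slope ran from -0.10 per step on the log2 scale for Nrgn, with 58.6% G and C in its transcript, to 0.20 for Lrrtm2, with 38.4%. Across the 41 genes, which are not independent, share the libraries and are described without a test, GC content and slope had a Pearson r of -0.82 and a Spearman rho of -0.80. Over 9560 kept genes at least as abundant as the lowest member these were -0.79 and -0.83. Between GC content and log2 fold change against WT control, r and rho across the 41 genes were 0.52 and 0.53 for APP control. For the treated group they were 0.051 and 0.22.

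All 11 members with under 45% G and C had positive slopes, and all 17 with over 55% had negative ones. Lrrtm2, Nlgn1 and Dlg2, the members that joined the called ones of the treated group against WT control with the replicate block, are among those 11, and so are Lrrc7 and Cnksr2, which were called without it. Dlg3, Dlgap1 and Sipa1l1, the other called members, are in neither set, with 52.0%, 50.9% and 52.6% G and C. Lrrtm2, an adhesion partner of neurexin, was called between APP control and WT control as well when the number was a factor in the model (log2 fold change -0.33, DESeq2 adjusted p 0.0026), when it was a linear term (-0.27, 0.037) or with the block (-0.28, 0.017). The members called in those fits were 2, 3 with Sipa1l1, and 2, all lower, where 1.31%, 2.34% and 2.18% of all genes were.

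**Figure D5:**
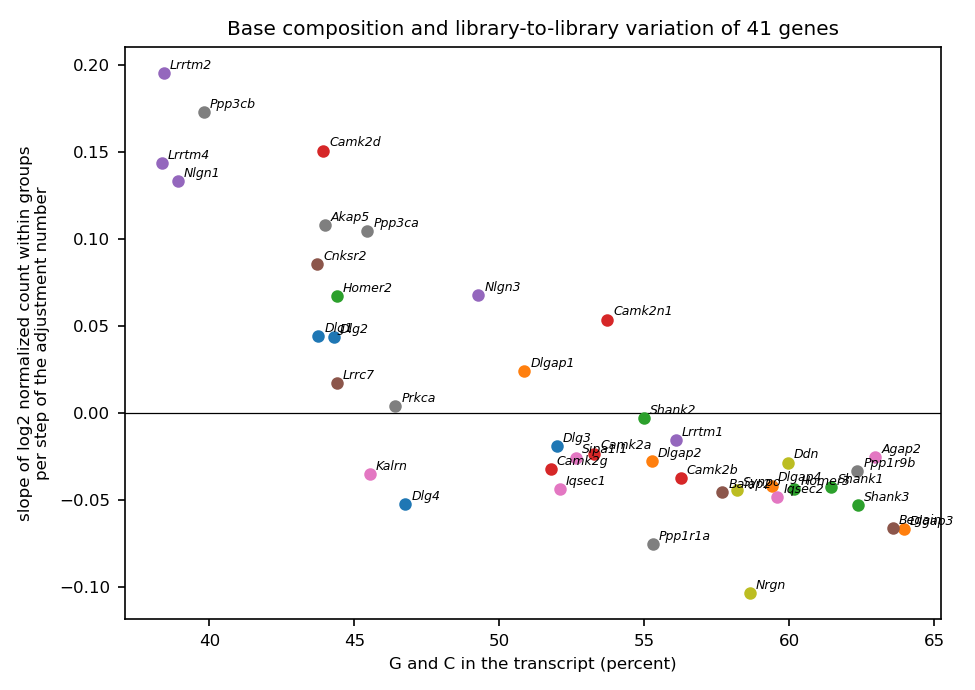
Percent G and C of the transcript (x) against the change of the log2 normalized count per step of the adjustment number within groups (y) for the 41 genes, coloured by role. All 11 genes under 45% G and C lie above 0, up to 0.20 for Lrrtm2, and all 17 over 55% lie below 0.

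The members' fold changes were also described by gene length. Between APP control and WT control the 15 members spanning 200 kb or more had a median log2 fold change of -0.12 and the other 26 of -0.049. All 975 kept genes of that span had a median of -0.092 with 4.41% called lower, and the 18262 shorter genes one of -0.0088 with 0.871% called lower. Between the treated group and WT control 4 of the 15 long members were called, Lrrc7, Sipa1l1, Dlgap1 and Cnksr2, where 156 of the 975 genes of that span were called lower. The parts of span and base composition in the differences were not tested.

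Other genes of the excitatory postsynapse, a list of 47 that holds receptor partners, calmodulins, kinases and actin regulators, was counted in the same fits. Between APP control and WT control 2 of the 47 were called, both lower, where 1.05% of all genes were. Their median log2 fold change was -0.092, against -0.012 over all genes, and with neuron-marker scaling it was -0.013, against 0.064. Cttnbp2, which binds cortactin in spines, fell by 0.33 on the log2 scale (SE 0.07, DESeq2 adjusted p 6.7e-05), and Slitrk1, an adhesion protein, fell by 0.28 (SE 0.06, 0.00040). Rasgrf1, a Ras exchange factor, differed by -0.21 (SE 0.07, DESeq2 adjusted p 0.053).

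Between the treated group and WT control 9 of the 47 were called, all lower, where 3.36% of all genes were. Their median was -0.13, against -0.015 over all genes, and with neuron-marker scaling it was -0.073, against 0.044. Cttnbp2 fell by 0.44 (SE 0.06, DESeq2 adjusted p 1.2e-09), Slitrk1 by 0.30 (SE 0.06, 2.8e-05) and Rasgrf1 by 0.26 (SE 0.07, 0.0023). None of the 47 was called between the transgenic groups, where the smallest unadjusted p were those of the scaffold Tanc1 (log2 fold change -0.23, p 0.036), the kinase Camkk2 (0.10, p 0.048) and the CaMKII inhibitor Camk2n2 (0.29, p 0.055), each with a DESeq2 adjusted p of 1.00.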

How the data were processed

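RNA-seq counts per gene were used for all 19 libraries (polyA RNA, TruSeq, 50 nt from one end). Per the labels and the study's methods, the authors aligned reads to mm10 with STAR 2.5.2b and counted them with featureCounts (Subread 1.5.1) after FastQC 0.11.5, and deposited raw counts; the annotation release and the strand setting are not given in the sources used here. The authors also deposited a table on the log2(CPM + 1) scale, less an adjustment, which served as an alternative only. The counts were matched to GENCODE M21 (48349 of 48709 identifiers), and genes with at least 5 counts in 50% of libraries were kept. Symbols were taken from that annotation.

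The main test was DESeq2 1.42.0 with the 3 groups in one fit, its Wald test and Benjamini-Hochberg adjustment over all 19297 kept genes at 0.05; normalized counts are counts divided by its size factors. Alternatives used edgeR 4.0.16 (quasi-likelihood), limma 3.58.1 on the deposited table, other scalings and filters, batch terms and left-out libraries (R 4.3.3). Family shares were compared by two-sided exact permutation tests (scipy 1.17.1) with adjustment over 12 tests. The fits were tested on simulated counts. Same-numbered libraries of WT control and APP anti-miR-mix had correlated deviations in each of 6 pairs (0.15 to 0.57 over 10000 abundant genes). The values were 0.0072 to 0.53 for WT control with APP control and -0.082 to 0.73 for the APP groups. Libraries with different numbers were not compared, and the adjustment number rose or stayed level with the label number within each group. Whether the label number pairs libraries was therefore not tested.

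Text names members called in any comparison, the 12 with the smallest unadjusted p in APP control against WT control, the 5 with the smallest between both APP groups, 12 representatives of the roles, and 3 further postsynaptic genes per comparison. Levels per length name further members by rank, and members with an 8mer or on a target list are named there. The members and all lists were chosen with earlier results of these data known. Total counts ran from 19362343 to 37018917 per library, and the spread between libraries is a limit of the tests. The lowest normalized count of a member in a WT control library was 260.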

Additional observations from a re-analysis of the deposited data

Results flagged for a closer look

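In 18 of 135 groups examined 1 library lay far from the others, where chance gives about 1 in 20, or 6.75 of 135. The 135 groups share the same 19 libraries and are not independent, so no excess over chance is drawn from these counts. In 9 of the 18 it was WT control 4, with the highest value of its group. Its normalized counts there were 23303 for Dlg4, 2313 for Dlgap2, 7849 for Shank3, 10026 for Baiap2, 23310 for Kalrn, 15618 for Sipa1l1, 42849 for Agap2, 9554 for Iqsec2 and 6270 for Synpo. Counts of the remaining WT libraries ran from 19374 to 20507 for Dlg4 and from 7452 to 7777 for Baiap2, whose gap was the widest of these. Without WT control 4 the median log2 fold change of the members against WT control was -0.026 for APP control and -0.071 for APP anti-miR-mix, and Lrrc7 was called in both.

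APP control 1 stood apart as the highest of its group for Dlg3 (6912), Dlgap2 (1963), Camk2a (116439) and Sipa1l1 (13643). APP anti-miR-mix 7 stood apart as the highest for Dlg2 (11997 against 10138 to 10627 in the others) and Akap5 (3678), and APP anti-miR-mix 3 for Prkca (7980). The Shank1 share was lowest and apart from the others at 59.8% in WT control 5 and at 57.0% in APP control 5.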

How the results depend on the processing

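The number of members called in APP control against WT control was 1, where 1.05% of all genes were called lower. It was 2 with the adjustment number as a factor (1.31%) and 3 with it as a linear term (2.34%). With the label number as a block, not an established pairing, the count was 2 (2.18%). When single libraries were left out it was 1 to 2, where 666 to 1209 genes were called in either direction. For the treated group against WT control it was 5, where 3.36% of all genes were called lower. It was 1 with neuron-marker size factors (1.05%) and 8 with the replicate block (5.05%). With the adjustment number as a factor it was 6, where 1733 genes were called in either direction. Without the libraries high in choroid plexus markers it was 2, where 1259 were. With single libraries left out it was 3 to 6, where 1169 to 2012 were. It was 3 without WT control 4 or without WT control 6, when Cnksr2 and Dlg3 lost their calls. No member was called between the APP groups under any alternative run, the replicate block included. In all, 82 of 93 alternative counts stayed within 1.5 times the main count. The 93 include those between the APP groups, where no member was called in any run. They also include fits that left out a library of a group outside the comparison, so this share is not a measure of stability. Of 1705 alternative log2 fold changes of named members, 1652 kept their direction and side of the threshold and 23 turned their direction, none of them called. Between APP control and WT control these were Camk2a (0.062 with neuron-marker scaling, 0.031 with limma on the deposited table, 0.00091 without the choroid plexus libraries, -0.057 to 0.077 leaving libraries out), Camk2b (0.051 with neuron-marker scaling, 0.014 with limma, -0.060 to 0.033), Nrgn (0.037 with neuron-marker scaling, -0.080 to 0.029), and Shank3 and Synpo (0.0048 and 0.014 with neuron-marker scaling). Between the APP groups they were Dlg2 (-0.0050 with neuron-marker scaling, -0.017 with the block, -0.024 to 0.035) and Sipa1l1 (-0.067 to 0.012), and for the treated group against WT control Camk2a (-0.13 to 5.55e-05).

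The difference in Shank1 share with the replicate block was -1.61 points for APP control and -1.45 for APP anti-miR-mix, both against WT control; 6 pairs could not pass the adjusted threshold here, so that test says nothing about stability. The lower share was not past the threshold for APP control without WT control 1 and 5, the WT libraries high in amyloid response genes (-1.77); it missed the threshold without WT control 1, 2, 3, 4 or 6, in 5 of 19 values each, and leaving out 1 library gave -1.82 to -1.19 and -1.79 to -1.45. The other differences, from -0.97 to 0.36 points, were uncalled, and several turned: Dlg4 between the APP groups (0.17 without the choroid plexus libraries, 0.15 with the block, -0.98 to 0.32 leaving libraries out) and against WT control (-0.28 with counts not divided by length, -0.43 to 0.44), Shank1 between the transgenic groups (-0.060 not divided by length, -0.41 to 0.23) and Ppp3ca for the treated group against WT control (0.25 with the block, -1.17 to 0.25). Leaving libraries out also turned Camk2a for APP control (-0.41 to 0.85) and APP anti-miR-mix (-0.99 to 0.27), Dlg4 in APP control (-0.31 to 0.99) and Ppp3ca in APP control (-0.20 to 0.80), all against WT control. The causes were not tested. Homer2, Sipa1l1 and Kalrn gained a call when 1 library was left out, and Cnksr2 and Dlg3 lost one.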

Other observations

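Of 6 inhibitory interneuron markers, which the members do not include, DESeq2 called 2 lower against WT control in each transgenic group, where 1.05% of all genes were called lower in APP control and 3.36% in the treated group. These were Gad1 and Gad2, which encode the enzymes of GABA synthesis, in APP control, and Gad1 and Sst, which encodes somatostatin, in the treated group. Vip was above 0 in both, at 0.0092 and 0.020, and the other 5 were negative. The median log2 fold changes of all 6 were -0.21 for APP control and -0.18 for the treated group, or -0.14 and -0.12 with neuron-marker scaling. Their summed normalized counts lay between 26570 and 30239 in the WT libraries, between 22771 and 24953 in the untreated APP libraries and between 22384 and 25620 in the treated ones, so that neither APP group reached the lowest WT library. The mean log2 level of the 6 markers did overlap. It lay between 11.43 and 11.71 in WT, 11.39 and 11.46 in untreated APP and 11.31 and 11.52 in treated libraries. No single marker was lower without overlap in either comparison with WT control.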
